A study of Mus musculus with 4 samples.

Results

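The 42 genes described here encode the machinery of mitosis: the kinase and cyclins that start it, the kinetochore that ties chromosomes to spindle fibres, the checkpoint that holds anaphase back, the motors of the spindle, the enzymes that end mitosis, and the condensin and topoisomerase proteins that shape chromosomes. They were chosen by name, for their role, with earlier results of these data known. They were read from every array spot that carries 1 of the 42 gene names and is not a control. All 42 were found, on 71 spots of 62 probes, out of 30107 named genes or transcripts on the array. In 27 of them the gene had 1 probe and in 15 it had several.

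The study hybridised 4 RNA samples of wild type C57/BL6 mice to 1-colour Agilent arrays, 1 array per group. The groups were o-organoid and y-organoid, which are both crypt-villus organoids, crypt, and whole intestine. The sources used here give neither the meaning of the letters y and o, nor the animals' age and number, nor the organoid culture. By its title, the study asked how acetylcholine from outside the nervous system acts on Lgr5-positive stem cells. The o-organoid sample was labelled from 40 ng of RNA, and the y-organoid, crypt and intestine samples from 20 ng each. There are no replicates, so every difference compares 2 arrays and has no p-value and no standard error between groups.

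Intestinal crypts are pits of the gut wall in which stem cells and their fast-dividing daughters make new epithelium, while the villi hold cells that have left the cycle. Messages for mitotic proteins build up late in the cell cycle, in G2 and mitosis, and are held down in resting and differentiated cells, so that in a tissue sample they mostly come from dividing cells. Much of this timing runs through short promoter elements. The cell cycle genes homology region, or CHR, with the core TTTGAA, is bound by a protein complex called MuvB, with the repressors p107 and p130 in resting cells and with B-Myb and FoxM1 in dividing cells. The CCAAT box is bound by the factor NF-Y.

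The promoters of members are shown first, to let these elements be seen in sequence; whether they bear on the differences between arrays was not tested. Sequences came from RefSeq on build GRCm38.p6, and 35 of the 42 members matched, with 37 windows of 250 bases before to 50 after the annotated start. Both strands were searched for the exact letters TTTGAA and CCAAT. The core TTTGAA occurred in 29 of 37 windows of members (78.4%), in 4 of 37 windows of DNA replication and S phase genes (10.8%), and in 5878 of 32851 windows of all genes (17.9%). A CCAAT occurred in 29 of 37 windows of members (78.4%), in 21 of 37 windows of S phase genes (56.8%) and in 37.4% of all windows. Both stood in 26 windows of members (70.3%), in 3 of S phase genes (8.11%) and in 6.95% of all. These shares are counts of windows, and no test was made of them. Of the 37 matches to TTTGAA in members, 27 began within 50 bases of the annotated start and 19 after it, and 1 overlapped a CCAAT match. Ect2 and Prc1 had overlapping windows, so their sites were counted more than once in these numbers. The related core TTCGAA was in 3 windows (8.11%, against 1.56% of all windows).

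The 150 bases before the annotated start are printed for 7 members, 5′ to 3′ on the gene's own strand, to show the spacing of the elements. Capitals mark TTTGAA (reverse complement TTCAAA), its variant core and the CCAAT box (reverse complement ATTGG). The first 5 have both elements, Ccnb1 has CCAAT alone, and Pttg1, which is the exception among the expression values, has neither.
Cdk1 (chr10:69352913-69353062, minus strand): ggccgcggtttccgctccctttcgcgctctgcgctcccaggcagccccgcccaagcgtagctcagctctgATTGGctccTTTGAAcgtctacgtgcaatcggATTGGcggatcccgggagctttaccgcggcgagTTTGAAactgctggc
Cdc20 (chr4:118437344-118437493, minus strand): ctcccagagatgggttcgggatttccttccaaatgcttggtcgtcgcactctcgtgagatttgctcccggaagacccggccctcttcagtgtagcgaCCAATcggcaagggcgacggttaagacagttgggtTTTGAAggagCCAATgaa
Ube2c (chr2:164769779-164769928, plus strand): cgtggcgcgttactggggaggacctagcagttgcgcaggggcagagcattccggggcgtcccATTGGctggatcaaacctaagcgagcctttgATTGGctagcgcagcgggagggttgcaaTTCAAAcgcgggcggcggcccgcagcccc
Top2a (chr11:99024190-99024339, minus strand): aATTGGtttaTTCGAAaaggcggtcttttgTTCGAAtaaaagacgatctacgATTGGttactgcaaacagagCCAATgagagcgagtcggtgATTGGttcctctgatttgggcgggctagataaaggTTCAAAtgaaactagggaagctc
Mki67 (chr7:135716380-135716529, minus strand): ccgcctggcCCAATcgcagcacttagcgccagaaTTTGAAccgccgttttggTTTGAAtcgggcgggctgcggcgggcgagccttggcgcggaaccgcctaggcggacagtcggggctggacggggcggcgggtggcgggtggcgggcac
Ccnb1 (chr13:100786487-100786636, minus strand): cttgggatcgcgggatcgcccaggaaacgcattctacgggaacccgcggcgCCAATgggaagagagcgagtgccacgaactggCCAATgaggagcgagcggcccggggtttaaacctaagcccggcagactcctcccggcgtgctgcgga
Pttg1 (chr11:43425982-43426131, minus strand): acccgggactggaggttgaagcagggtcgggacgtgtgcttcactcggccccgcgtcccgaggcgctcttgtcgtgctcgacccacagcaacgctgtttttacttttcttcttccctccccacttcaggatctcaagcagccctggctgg
The 5 members whose window had neither TTTGAA nor CCAAT were Birc5, Mad2l1, Nuf2, Nusap1 and Pttg1. Their differences between crypt and intestine ran between -0.01 and 1.80 on the log2 scale, against 0.46 (a bound) to 2.13 among the 23 members with a difference that had both. The medians were close, at 1.41 for those with neither and 1.52 for those with both. Pttg1 alone made the low end, while Birc5 (1.48), Mad2l1 (1.14), Nuf2 (1.80) and Nusap1 (1.41) were all past 2-fold. A match is a description of letters in a window, and its absence says nothing about which factors act on the gene.

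The probes of Ndc80 and Bub1 are shown because Ndc80 had the largest difference between crypt and intestine, and because Bub1 was the member spotted 10 times on each array. Positions are on build mm9, as in the files, on the minus strand; the Ndc80 probe spans 963 bases of genome with its 60 bases.
Ndc80 (chr17:71860793-71861755): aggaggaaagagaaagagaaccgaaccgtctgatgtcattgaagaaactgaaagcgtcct
Bub1 (chr2:127626988-127627047): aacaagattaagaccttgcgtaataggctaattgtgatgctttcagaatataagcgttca

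Each signal below is a log2 intensity minus the 75th percentile of that array, and a gene with several probes was read by its brightest. Between 51.9% and 58.7% of the spots were well above background, and no spot was saturated. From repeated spots alone, the technical SD of a difference was 0.137 to 0.176, and labelling and hybridisation add to it by an amount not measured here. Of the 42 members, 38 were well above background on all 4 arrays, Ttk, Cenpf and Ncapg on some of them, and Aurkb on none, so that nothing is said of Aurkb. A member below background on 1 array of a comparison has only a bound, against the higher of its own signal there and the lowest signal well above background. On the marker lists, all 20 pan-epithelial genes were above background on every array. All 10 stromal and 9 of 10 smooth muscle genes were above background on the intestine array, against 2 or 3 stromal and 3 or 4 muscle genes on each other array. The stromal markers Col1a1 and Dcn and the muscle markers Myh11 and Des were not above background on those other arrays. By contrast, the stromal markers Vim and Fbln1 and the muscle markers Tagln, Mylk and Smtn were above it on all 4 arrays. Xist, a transcript of female cells, passed background in the intestine sample alone (-1.17), and the Y-linked Ddx3y in the other 3 (-0.47 in o-organoid, 0.09 in y-organoid, -1.04 in crypt) but not in intestine. A second Y-linked gene, Eif2s3y, had 0.86 in o-organoid, 1.28 in y-organoid and 1.08 in crypt, and was not above background in intestine. By these transcripts the intestine RNA read as female and that of the other 3 samples as male. In comparisons with intestine, tissue and the sex of the animals therefore cannot be told apart. These sex-linked genes were chosen after their values were seen.

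**Figure D1:**
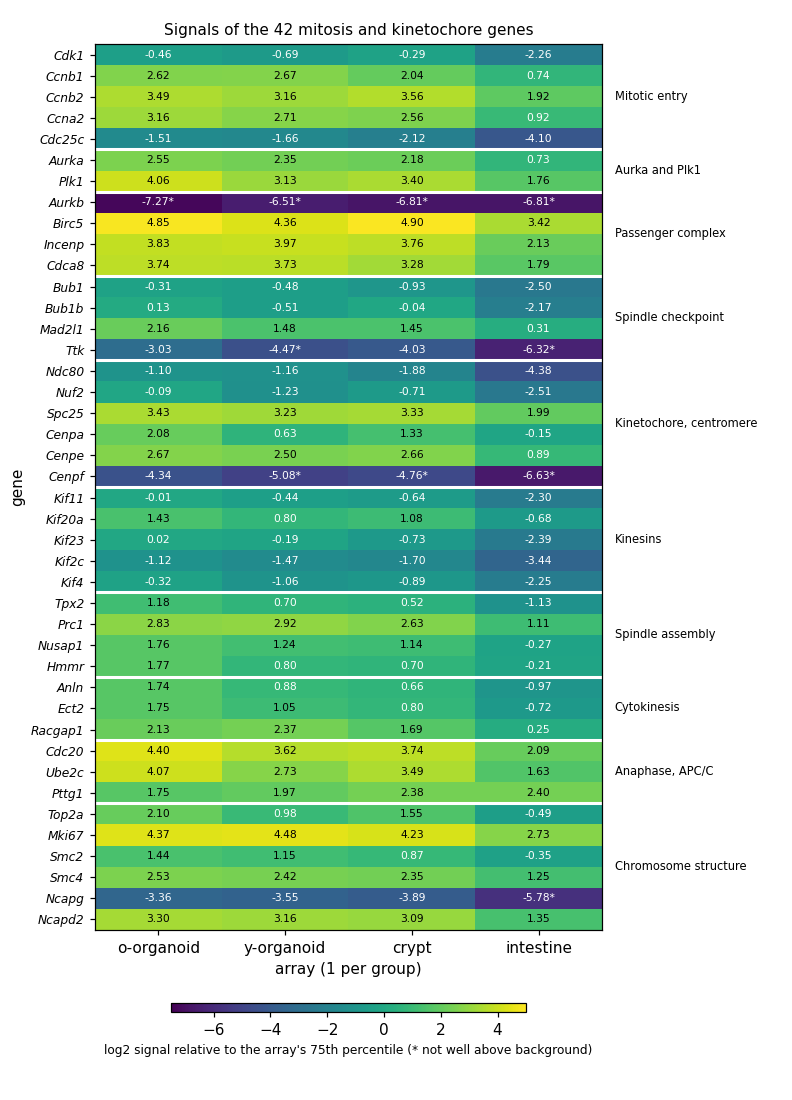
Log2 intensities minus each array's 75th percentile for the 42 members (rows, grouped by role) on the o-organoid, y-organoid, crypt and intestine arrays (columns), with an asterisk where a probe was not well above background; signals are to be read along a row, since probes differ in brightness. In 37 of the 38 members measured on all arrays, the intestine array had the lowest signal, and Pttg1 is the exception. The same was not counted over all genes.

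Across the 4 arrays the members made 1 main step, between intestine and the other 3 samples. In 37 of the 38 members measured on all arrays the intestine signal was the lowest, and in 34 it lay at least 1 log2 unit (2-fold) under the lowest of the other 3 arrays. Among o-organoid, y-organoid and crypt the signals of a member lay within a median of 0.62 log2 units, and within 1 unit in 32 of 38 members. Cenpe, a kinesin that carries chromosomes along the spindle, had the narrowest range there (0.17), and Cenpa, the histone variant that marks centromeres, the widest (1.45). The o-organoid array had the highest signal for 29 of the 38 members, y-organoid for 5, crypt for 3 and intestine for 1. The same counts were not made over all genes. The order among o-organoid, y-organoid and crypt also depends on the scaling. Over the settings, the members' median ran from -0.41 to 0.49 for y-organoid minus crypt, and from 0.20 to 0.96 for o-organoid minus y-organoid.

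Crypt was compared with whole intestine, where tissue and the sex of the animals cannot be told apart. Of 40 members with a difference, 39 were above 0, where 53.8% of 18195 genes were, 36 were at least 2-fold higher on the crypt array and 0 at least 2-fold lower, where 6.84% of genes were at least 2-fold higher and 14.3% lower. The median difference of the members was 1.60 (3.03-fold), beside 0.06 over all genes. The 38 measured values had quartiles of 1.44 and 1.74. The members' median was 1.33 with another background correction (normexp), 1.19 with arrays centred on pan-epithelial genes, and 2.34 with the deposited scaling, under which the median of all genes was 0.84. Fewer dividing cells and less RNA per cell cannot be told apart in such samples. The pan-epithelial list itself had a median difference of 0.44 and the stromal list one of -4.97. Stem cell markers had one of 1.11. For enterocyte genes it was -0.26, with 0 of 17 past 2-fold in either direction. Messages of enterocytes thus stood at a similar level in both samples, and the part of these lists was not tested. The summed linear level, in units of the array's 75th percentile, was 6.21 in crypt and 61.1 in intestine for the stromal list, 5.03 and 96.8 for smooth muscle, 33.7 and 144 for immune genes (10 of 14 above background in crypt and 14 in intestine, with Ms4a1, Jchain and Itgax among those not above it in crypt), and 0.827 and 5703 for 7 pancreas genes. On the intestine array the pancreas sum was above that of the 20 pan-epithelial genes (1044), so RNA of genes of another organ was abundant there. Single genes of these lists did not all follow. Fbln1, the brightest stromal gene in crypt, had 2.51 there and 2.25 in intestine, and the immune genes Cd4 and Itgam differed by only -0.28 and -0.18. By the sums, cells and RNA of these other types differed between the samples, and their part in the result was not tested.

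The genes of mitotic entry were all at least 2-fold higher on the crypt array than on the intestine array. Cdk1, the kinase that drives cells into mitosis, had signals of -0.46 in o-organoid, -0.69 in y-organoid, -0.29 in crypt and -2.26 in intestine. The first 3 arrays lay together and the intestine array 3.92-fold under crypt. That value rests on the brightest probe of Cdk1, since its further probes were above background in neither crypt nor intestine. Cyclin B1, Ccnb1, the main partner of Cdk1 in mitosis, had 2.62 in o-organoid, 2.67 in y-organoid, 2.04 in crypt and 0.74 in intestine. Here both organoids were above crypt, by 1.49-fold for o-organoid and 1.55-fold for y-organoid. Ccnb2, a second B-type cyclin, had 3.49 in o-organoid, 3.16 in y-organoid, 3.56 in crypt and 1.92 in intestine, so that crypt was the highest. Cyclin A2, Ccna2, which acts from S phase into early mitosis, was 3.13-fold higher in crypt than in intestine, and Cdc25c, a phosphatase that activates Cdk1, 3.93-fold. For Aurka, a kinase of the spindle poles, the difference was 1.45, and for Plk1, a kinase that acts at many steps of mitosis, 1.63.

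Kinetochore genes held the widest difference of the list. Ndc80, the subunit of the outer kinetochore that grips spindle fibres, had -1.10 in o-organoid, -1.16 in y-organoid, -1.88 in crypt and -4.38 in intestine. As processed intensities these were 299 in o-organoid, 126 in y-organoid, 127 in crypt and 18.6 in intestine, so the intestine spot was dim although above background. Crypt was 5.63-fold higher than intestine. Its partners in the Ndc80 complex differed less, Nuf2 by 1.80 and Spc25 by 1.34. Cenpe (1.77) and Cenpa (1.48) were also past 2-fold, and Cenpf, a large kinetochore protein, was dim on both arrays.

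In the spindle checkpoint, which delays anaphase until every chromosome is attached, Bub1b had 0.13 in o-organoid, -0.51 in y-organoid, -0.04 in crypt and -2.17 in intestine. That is a 4.37-fold difference between crypt and intestine. Bub1, a kinase that recruits other checkpoint proteins, had -0.31 in o-organoid, -0.48 in y-organoid, -0.93 in crypt and -2.50 in intestine as means over its spots. Its SD over 10 spots was 0.082 in o-organoid, 0.095 in y-organoid and 0.081 in crypt, and 0.15 over 9 spots in intestine. The highest intestine spot (-2.30) lay under the lowest crypt spot (-1.01), and the highest crypt spot (-0.74) under the lowest y-organoid spot (-0.62). On this scaling the order of those arrays was thus clear of spot noise for Bub1. The o-organoid spots (-0.41 to -0.13) and y-organoid spots (-0.62 to -0.27) overlapped. Before scaling, the intensity was 201 in y-organoid and 247 in crypt, so the place of y-organoid above crypt rests on the scaling. Spots of 1 array share 1 RNA sample and say nothing about the spread between animals. Mad2l1, which inhibits the activator of anaphase, differed by 1.14 between crypt and intestine. Ttk, the kinase at the head of the checkpoint, was not above background in intestine and was at least 1.37-fold higher in crypt.

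The 5 Kif genes, kinesin motors of the spindle, lay between 1.36 and 1.76 on the log2 scale, with Kif20a (3.39-fold), Kif2c (3.34-fold), Kif11, the motor that pushes spindle poles apart (3.17-fold), Kif23 (3.17-fold) and Kif4 (2.56-fold). Kif4 is X-linked, and sex-linked transcripts differed between these arrays, but whether this bears on its value was not tested. The spindle genes Tpx2, which activates Aurora A (1.65), Prc1, which bundles fibres between the separating chromosomes (1.52), and Nusap1 (1.41) were past 2-fold. Hmmr, a spindle-bound hyaluronan receptor, was not, at 0.91. In the chromosomal passenger complex, which corrects wrong attachments, Birc5 (survivin) differed by 1.48, Incenp, its scaffold, by 1.63 and Cdca8 (borealin) by 1.49. The cytokinesis genes were as close to each other: Anln, an actin-binding protein of the cleavage furrow, 1.63, Ect2, which activates RhoA there, 1.52, and Racgap1, its partner, 1.44.

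Genes that end mitosis split. Cdc20, which activates the anaphase-promoting complex, had 4.40 in o-organoid, 3.62 in y-organoid, 3.74 in crypt and 2.09 in intestine. Ube2c, the ubiquitin-carrying enzyme of that complex, had 4.07 in o-organoid, 2.73 in y-organoid, 3.49 in crypt and 1.63 in intestine. Both were past 3-fold between crypt and intestine, at 3.14- and 3.63-fold. Pttg1, or securin, which blocks the enzyme that parts sister chromatids, had 1.75 in o-organoid, 1.97 in y-organoid, 2.38 in crypt and 2.40 in intestine. It was the single member whose difference between crypt and intestine was not above 0 (-0.01), and the single member lowest in o-organoid. Its second, much dimmer probe (-3.79 in crypt) had a difference of 0.01. That probe lay near the lowest signal well above background (-4.52 in crypt and -4.48 in intestine), so it is a weak check. The 2 probes differed more for the organoids. Against crypt the second probe gave 0.11 in y-organoid and -0.19 in o-organoid, where the brightest gave -0.41 and -0.64.

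Chromosome proteins were higher in crypt too. Top2a, the topoisomerase that untangles sister chromatids, had 2.10 in o-organoid, 0.98 in y-organoid, 1.55 in crypt and -0.49 in intestine, with crypt 4.10-fold above intestine. Mki67, the coat protein of mitotic chromosomes and the usual marker of cycling cells, had 4.37 in o-organoid, 4.48 in y-organoid, 4.23 in crypt and 2.73 in intestine. The condensin subunits Ncapd2 (1.74), Smc2 (1.23) and Smc4 (1.11) were past 2-fold, and Ncapg, dim in intestine, was at least 1.51-fold higher. Smc2 and Smc4 also serve a second condensin complex. They lay at the lower end of the members, as did Mad2l1 (1.14), Hmmr (0.91) and Pttg1 (-0.01), and whether that role bears on it was not tested.

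**Figure D2:**
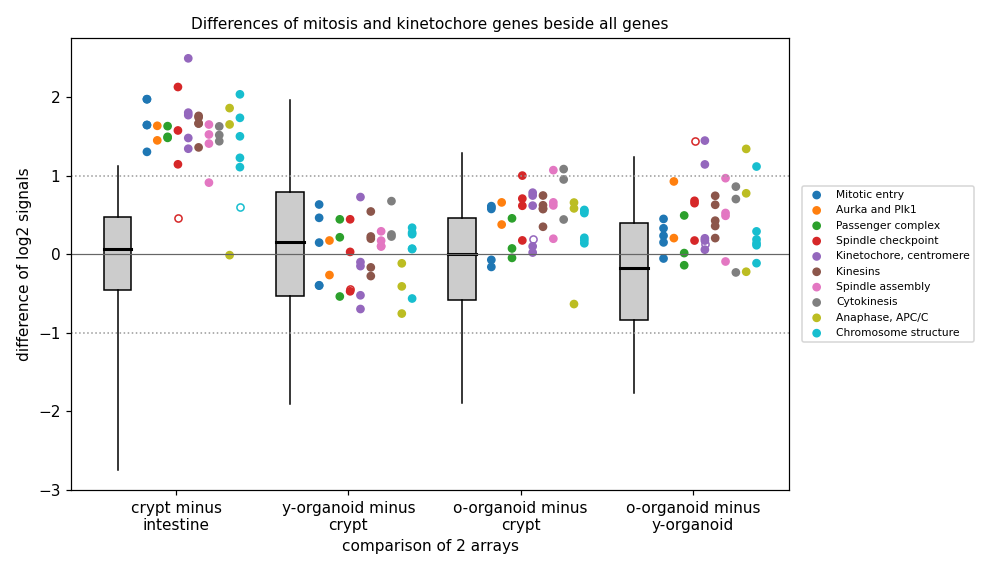
Differences of log2 signals for members in 4 comparisons (dots coloured by role; open dots are bounds), beside all genes with a difference (grey box from the lower to the upper quartile with the median, whiskers from the 5th to the 95th percentile); dotted lines mark 2-fold. Between crypt and intestine 36 of 40 members lie above the upper dotted line, while against crypt the y-organoid values lie between -0.76 and 0.73.

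Next, y-organoid was set against crypt. No member with a difference reached 2-fold in either direction (0 of 40 higher, where 18.5% of 17166 genes were higher, and 0 of 40 lower, where 13.6% were lower). Above 0 stood 24 of 40, where 55.9% of genes did. The median was 0.10, beside 0.16 over all genes, and it was -0.41 with the deposited scaling, under which all genes had a median of -0.37 and 5 members, against 26.8% of all genes, were at least 2-fold lower. With arrays centred on pan-epithelial genes the median was 0.49, beside 0.56 over all genes, and 3 members, against 32.3% of all genes, were at least 2-fold higher. Differences ran from -0.76 for Ube2c to 0.73 for Ndc80. Below 0 stood, besides Ube2c, Cenpa (-0.70), Top2a (-0.57), Birc5 (-0.54) and Nuf2 (-0.53), and above 0, besides Ndc80, Racgap1 (0.67), Ccnb1 (0.63) and Kif23 (0.54). By their brightest probes, all 3 genes of anaphase and the anaphase-promoting complex were under crypt (Cdc20 -0.12, Pttg1 -0.41). The second Pttg1 probe gave 0.11. All 4 spindle assembly and all 3 cytokinesis genes were above crypt, by 0.10 to 0.67. These directions depend on the scaling: under the deposited scaling 6 of those 7 genes were below crypt, Racgap1 being the exception, and with pan-epithelial centring Cdc20 was above it. Cdc20, Nusap1, Hmmr and Tpx2 also differed by less than the technical SD of 0.176. Stem cell markers had a median of 1.56 in the same comparison and enterocyte genes one of -4.11, both farther from 0 than the members' median; their part in the result was not tested.

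Set against crypt, o-organoid had most members slightly higher. Of 41 members with a difference, 37 were above 0, where 49.8% of 16727 genes were above 0, but only Anln (2.12-fold) and Hmmr (2.10-fold) were at least 2-fold higher, where 8.75% of genes were. The median was 0.57 (1.49-fold), beside 0.00 over all genes. It lay between 0.45 and 0.82 over the alternative settings. Ttk (-3.03 in o-organoid, -4.03 in crypt) stood just under 2-fold, and Ect2 (0.95), Ndc80 (0.78), Cenpa (0.75) and Kif23 (0.75) came next. Cytokinesis genes had the highest median of the groups (0.95), and the passenger complex the lowest (0.07). Of the 4 members under crypt, Pttg1 had the lowest value (-0.64), Cdk1 followed (-0.16), and Ccnb2 (-0.07) and Birc5 (-0.05) differed by less than the technical SD of 0.137. O-organoid RNA was labelled from 40 ng and crypt RNA from 20 ng; the amount of RNA and the sample cannot be told apart. Enterocyte genes had a median of -3.36, stem cell markers one of 1.09 and pan-epithelial genes one of -0.46 in the same comparison; their part in the result was not tested.

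The o-organoid array was also set against the y-organoid array. Of 41 members with a difference 35 were above 0, where 42.6% of 16861 genes were, and 5 were at least 2-fold higher, where 8.51% of genes were. None was at least 2-fold lower, where 19.8% of genes were. The 5 were Cenpa (2.72-fold), Ube2c (2.53-fold), Nuf2 (2.21-fold), Top2a (2.17-fold) and Ttk, which was not above background in y-organoid (at least 2.72-fold). Hmmr (0.97), Plk1 (0.93) and Anln (0.86) followed. Members below 0 were Racgap1 (-0.23), Pttg1 (-0.23), Incenp (-0.14), Mki67 (-0.12), Prc1 (-0.09) and Ccnb1 (-0.06), and of these Racgap1 and Pttg1 differed by more than the technical SD of 0.167. The median was 0.33, beside -0.18 over all genes, and with the deposited scaling it was 0.96 with 19 members at least 2-fold higher, under which all genes had a median of 0.45 and 25.6% of them were at least 2-fold higher. With pan-epithelial centring 3 members and 6.13% of all genes were at least 2-fold higher. Enterocyte genes had a median of 0.85 in this comparison, with 6 of 16 at least 2-fold higher, and stem cell markers one of -0.47; their part in the result was not tested. The o-organoid sample was labelled from 40 ng and the y-organoid sample from 20 ng, and the amount of RNA and the sample cannot be told apart.

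Probes of the same member gave a check on these readings. Of the 20 further probes of 15 members, 14 were measured in both crypt and intestine, and 13 of these lay within 1 log2 unit of the brightest probe. The exception was Tpx2, whose dim second probe had -0.21 where its brightest had 1.65. The further probes not measured there were those of Cdk1, Ect2, Kif23 and Nuf2, which were above background in neither crypt nor intestine. For these genes the difference between crypt and intestine rests on the brightest probe alone. Between y-organoid and crypt the probes spread more: of 14 measured further probes, 10 had the sign of the brightest, and 11 lay within 1 log2 unit of it. Ccnb1 had differences of 0.63, 1.89 and -0.41 by its 3 probes, and Cdca8 had 0.44 and -0.71. Further probes of Cdk1, Ect2 and Nuf2 were above background in y-organoid and not in crypt, at least 2.67-, 5.04- and 2.94-fold higher in y-organoid, while the brightest probes of these genes differed by -0.40, 0.25 and -0.53. The Ect2 and Nuf2 probes were designed on other transcripts than the brightest probes, by their accessions. For Cdk1, another probe that overlaps the brightest was not above background on any array. With the mean over probes, the difference of Nuf2 between o-organoid and y-organoid was -0.64 in place of 1.14. For members with several probes, differences between organoids therefore depend on the probe, by up to 1.72 log2 units among measured probes.

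**Figure D3:**
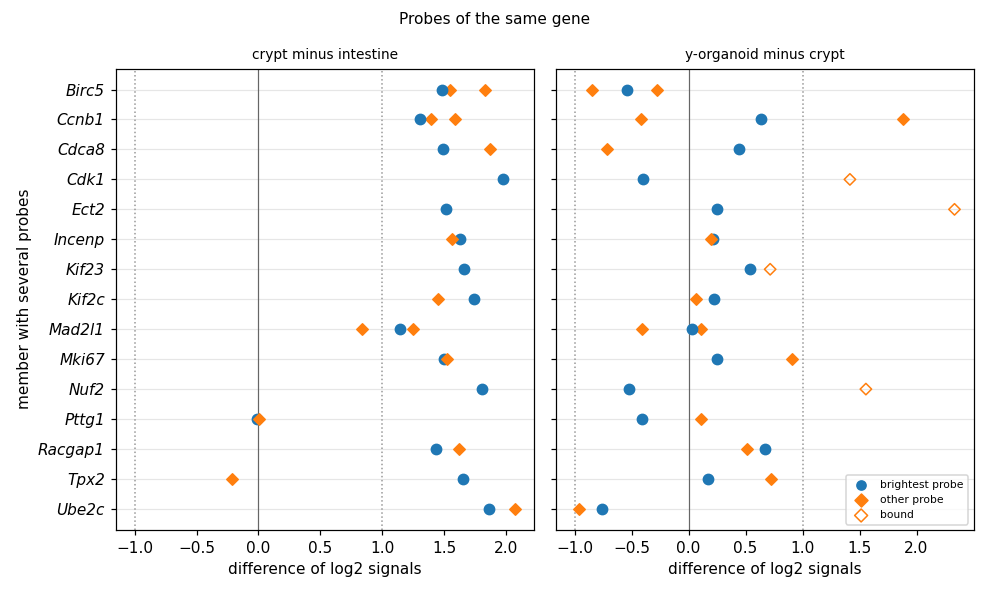
Differences of log2 signals by probe for the 15 members with several probes, for crypt minus intestine (left) and y-organoid minus crypt (right); blue circles are the brightest probe, orange diamonds other probes, open diamonds bounds, and dotted lines mark 2-fold. On the left the probes of a gene that have a difference lie together except for Tpx2, and Cdk1, Ect2, Kif23 and Nuf2 have only their brightest probe there. On the right Ccnb1, Cdk1, Ect2 and Nuf2 have a further probe past 2-fold.

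Mitosis genes outside the 42 were read from a second list, and the counts for this and the following lists stand beside the shares of all genes already given: 6.84% higher and 14.3% lower in crypt against intestine, 18.5% and 13.6% in y-organoid against crypt, 8.75% and 14% in o-organoid against crypt, and 8.51% and 19.8% in o-organoid against y-organoid. Of 85 further genes of the kinetochore, spindle, cohesion and cytokinesis, 82 had a difference between crypt and intestine, 65 were at least 2-fold higher in crypt and 0 at least 2-fold lower, with a median of 1.44. The largest measured were Espl1, the separase that cuts cohesin (2.02), Hjurp, the chaperone that loads Cenpa (1.95), Dsn1, a subunit of the kinetochore's Mis12 complex (1.88), and Ckap2l (1.87). The other probes of Hjurp had between 0.78 and 1.03. In o-organoid against crypt, 13 of 84 were at least 2-fold higher and 1 lower (median 0.58), and the largest measured on all arrays concerned were Sgo2a, a guard of centromeric cohesion (1.44), Depdc1a (1.41), Mis18a (1.37) and Zwint (1.31). Second probes gave 0.88 for Mis18a and 1.05 for Zwint. In y-organoid against crypt 9 of 84 were higher and 1 lower (median 0.08). Psrc1 had 3.90 there (1.58 in y-organoid, -2.32 in crypt), Cep55, which acts at the last cut between daughter cells, 2.92 (0.59 in y-organoid, -2.34 in crypt), and Cit and Sgo2a 1.56 each. A second probe of Cep55 gave a bound of 1.02. In o-organoid against y-organoid the 84 genes had a median of 0.51, with 19 higher and 4 lower; Mis18a (2.17, and 0.97 by its second probe) was at the top, Psrc1 (-2.67) and Cep55 (-1.96) at the bottom.

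S phase genes were set beside the members as the nearest other group of the cell cycle. Between crypt and intestine their median was 1.48, beside 1.60 for the members, and 32 of 39 were at least 2-fold higher. Among those measured on both arrays the largest were the helicase subunit Mcm3 (1.94), Dtl (1.79), Mcm2 (1.74) and Uhrf1 (1.73, and 1.11 by its second probe). Against crypt their medians were 0.46 in o-organoid and 0.19 in y-organoid, beside 0.57 and 0.10 for the members. In o-organoid against y-organoid the S phase median was 0.25, beside 0.33, with Mcm5 (1.65), Rfc3 (1.47), Pola2 (1.25) and Gins2 (1.15) past 2-fold. No difference between the lists was tested, and none is claimed.

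**Figure D4:**
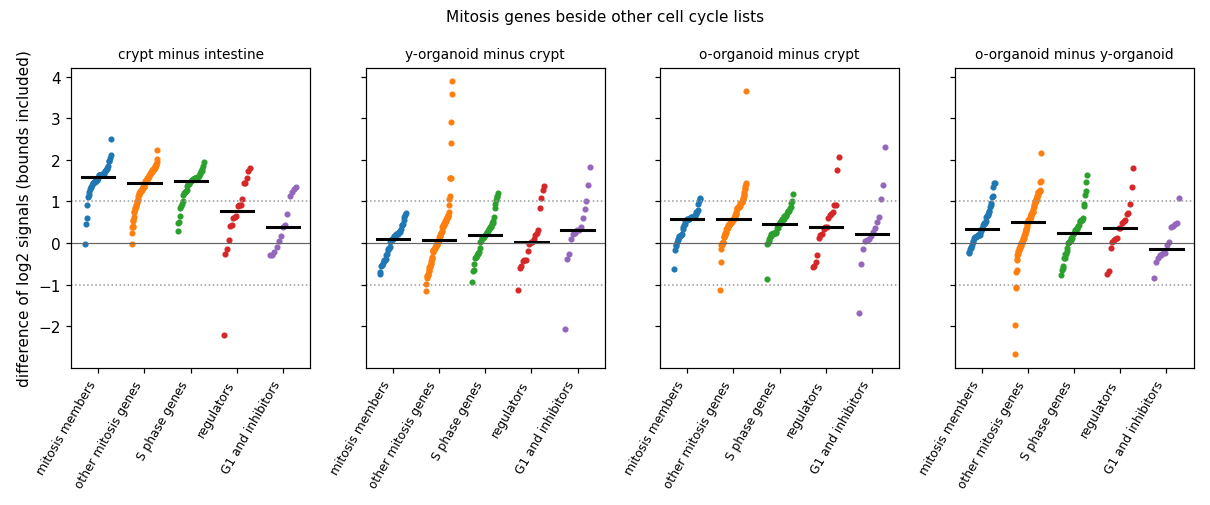
Differences of log2 signals in each of the 4 comparisons for the 42 members, 85 other mitosis genes, 40 S phase genes, 18 regulators and 15 G1 genes and inhibitors (sorted dots, bounds included, black bar for the median). Members, other mitosis genes and S phase genes have medians of 1.60, 1.44 and 1.48 between crypt and intestine, above those of regulators (0.78) and of G1 genes and inhibitors (0.39).

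A list of transcription regulators held MuvB subunits and their partners, NF-Y subunits, and E2F factors, which bind sites of their own. Of 18 regulators 6 were at least 2-fold higher in crypt than in intestine and 1 lower, with a median of 0.78. The largest were E2f8 (1.81), E2f7 (1.72) and Foxm1 (1.57), whose second probes gave -0.44 for E2f7 and 1.07 for Foxm1. Lin52, a MuvB subunit, had -2.21 by its brightest probe, but 0.43 by another and a bound of 0.28 by one more, so its value is unsettled. Nfya, the DNA-binding part of NF-Y, had -0.13 in o-organoid, -1.94 in y-organoid, -2.19 in crypt and -2.85 in intestine. It was thus set apart in o-organoid, by 2.06 from crypt and by 1.81 from y-organoid. Tfdp1, the partner of E2F factors, was above crypt by 1.76 in o-organoid and 1.28 in y-organoid, and its second probe gave 1.29 and -0.30. Mybl2, or B-Myb, had 0.91 in o-organoid against crypt by its brightest probe and -0.22 by its second, and E2f2 lay under crypt by -1.14 in y-organoid.

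The last list held genes of G1 and cell cycle inhibitors. Between crypt and intestine 4 of 13 were at least 2-fold higher, the cyclins Ccnd1 (1.34) and Ccnd2 (1.23) and the kinases Cdk4 (1.31) and Cdk2 (1.13), with a median of 0.39. Myc, a driver of growth and cell cycle entry, had 1.44 in o-organoid, 0.97 in y-organoid, -0.86 in crypt and -1.55 in intestine. Both organoids were above crypt, by 2.30 for o-organoid and 1.83 for y-organoid. Cdkn2b, an inhibitor of Cdk4 and Cdk6, had 1.38 in o-organoid, 1.001 in y-organoid, 3.07 in crypt and 3.03 in intestine. It was under crypt by -1.70 in o-organoid and -2.07 in y-organoid, and its other probe gave -1.41 and -2.64.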

How the data were processed

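Per the labels' protocols, total RNA was amplified from low input and labelled with Cy3, and each sample went on 1 array. The authors deposited the intensity of each spot, made with Agilent Feature Extraction 10.7.3.1 and already corrected for background, per the file headers. They also deposited a value table that holds a ratio, which was checked to be the processed intensity over 1 constant per array (36.9 for o-organoid, 25.2 for y-organoid, 29.5 for crypt and 40.5 for intestine). Control and outlier spots were left out, intensities were put on the log2 scale, each array was centred on its 75th percentile, repeated spots were averaged, and the brightest probe over the 4 arrays stood for its gene. Probes of members were taken by the gene name in the files; the others were named through RefSeq (GRCm38.p6, names only). A gene counted as higher or lower at 2-fold. Python 3.11.15, R 4.3.3 and limma 3.58.1 were used, and the counting of calls was tested on simulated data. With 1 array per group no test was run, and the number of arrays limits the precision. The members and lists were chosen with earlier results of these data known. All members are named; of the 4 other cell cycle lists, the 4 largest measured differences per comparison were the pool for names. Promoters, probes and other probes were chosen for display after values were seen. The 6 alternatives were normexp background correction (offset 50), quantile normalization, the deposited table, centring on pan-epithelial genes, the mean over probes, and no filter on dim probes.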

Additional observations from a re-analysis of the deposited data

How the results depend on the processing

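The median difference of the members between crypt and intestine was 1.60, and it was 1.33 with normexp, 2.34 with the deposited table and 1.19 with pan-epithelial centring. The count at least 2-fold higher stayed between 29 and 39 (36 as reported), where the share of all genes ran from 2.33% to 39.2%. Between y-organoid and crypt the median of 0.10 was -0.41 with the deposited table, with 5 members (26.8% of all genes) at least 2-fold lower. It was 0.49 with pan-epithelial centring, with 3 members (32.3% of all genes) at least 2-fold higher. With the mean over probes 1 member was at least 2-fold higher (18.1% of all genes). Between o-organoid and crypt the count of 2 was 4 with the deposited table (11.1% of all genes) and 5 with pan-epithelial centring (13.6% of all genes), where the median was 0.82. Between o-organoid and y-organoid the count of 5 was 19 with the deposited table (25.6% of all genes), with a median of 0.96. It was 3 with pan-epithelial centring (6.13% of all genes). Nuf2 had -0.64 between o-organoid and y-organoid with the mean over probes. The cause was not tested, but the deposited table and the pan-epithelial centring move all genes of an array by 1 constant. Under the deposited scaling, 39.2% of genes were at least 2-fold higher and 8.88% lower between crypt and intestine, against 6.84% and 14.3% as reported. Dim members (Aurkb, Cenpf, Ttk, Ncapg) have no value or a bound on some arrays. No paired analysis was possible because each group has 1 array.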

Other observations

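Pimreg and Kif14, outside the rule for names, were picked after their values were seen. Pimreg, a mitotic regulator, had -0.73 in o-organoid, -0.80 in y-organoid, -4.39 in crypt and -4.59 in intestine, where the last 2 were not well above background. On the log2 scale it was higher than in crypt by at least 3.65 in o-organoid and at least 3.59 in y-organoid. Kif14, a kinesin of cytokinesis, had -2.96 in o-organoid, -1.87 in y-organoid, -4.29 in crypt and -6.17 in intestine. Its crypt and intestine values were likewise not well above background, so no difference is given between them. Kif14 was at least 5.35-fold higher in y-organoid than in crypt.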
